A study of Mus musculus with 28 samples.

Results

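The collagen genes are the protein-coding genes of the mouse annotation (GRCm38, GENCODE M21) whose whole symbol is Col, a number, a and a number, such as Col5a3. The rule found 44 of the 53237 annotated genes in the count tables, and all 44 had a row in each table. By the kind of assembly their chains form, 11 were fibrillar, 6 belonged to the basement membrane type IV, 6 to the beaded filaments of type VI, 9 to the fibril-associated collagens with interrupted helices (FACIT), 4 to the transmembrane collagens, 3 to the short chain types, 2 to the multiplexins, 1 to the anchoring fibril and 2 to no such class. The rule reads symbols and no measured value, and it was set with earlier results of these data known.

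Collagens are proteins of the extracellular matrix whose chains wind into a triple helix inside the endoplasmic reticulum, where hydroxylases, glycosyltransferases and the chaperone Hsp47 act on them before secretion. In the brain, type IV networks line the vessels beneath the astrocyte end feet, while fibrillar types I and III and type VI are made chiefly by fibroblasts of the meninges and of the larger vessels. Neurons make some transmembrane and fibril-associated collagens, which are known for roles at synapses and in axon growth.

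The 28 libraries came from the cerebral cortex of C57BL/6J mice, each from 1 mouse. Conditional knockout mice (cKO) carried mGFAP-Cre, a driver that is active in astrocytes, and were homozygous for loxP-flanked alleles of the targeted gene. Their controls (Ctrl) were sex-matched littermates with loxP/loxP or loxP/+ alleles, for which the study names no driver. Bulk cortex was taken at postnatal day 17 (P17) and at P24, with 4 cKO and 4 Ctrl mice at each age, and no agent was given. Translating ribosome affinity purification (TRAP) was done at P24 on 3 cKO and 3 Ctrl mice that carried a Cre-dependent EGFP fused to the ribosomal protein L10A. Since mGFAP-Cre switches that fusion on, the TRAP mice of both genotypes are taken to have carried the driver, and the fusion marks whatever cells had Cre activity. A Ctrl mouse with the driver and loxP/loxP alleles would have the genotype given for cKO. The TRAP Ctrl mice may thus differ in genotype from the bulk Ctrl mice. Which alleles each TRAP Ctrl mouse carried with the driver is not stated. Each TRAP mouse gave an Input library, from lysate set aside before the pull-down, and an immunoprecipitated (IP) library, from ribosomes captured with GFP antibodies. In bulk cortex, fewer cells of a type and less RNA per cell cannot be told apart.

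Total counts ran from 12603873 to 14575302 at P24, from 8855488 to 11454729 at P17 and from 18433087 to 27242445 in the TRAP libraries. Levels are given in CPM, a gene's counts relative to the library size after scaling by the trimmed mean of M values. Over the total counts without that scaling, 3 counts corresponded to 0.206 to 0.238 CPM at P24 and 0.262 to 0.339 CPM at P17. In TRAP they corresponded to 0.110 to 0.163 CPM, counting error only. The astrocyte markers checked the pull-down: the summed level of 8 of them was 8512 to 11235 CPM in Ctrl IP and 834 to 958 CPM in Ctrl Input, and all 8 passed the test with a median log2 difference of 3.78. The defining markers of other types were lower in IP, with 6 of 8 tested fibroblast markers, 7 of 8 endothelial markers and 6 of 7 neuronal markers passing the test, but none was at 0 in every IP library. Mural cell markers were the exception, with 3 of 6 tested higher and 2 lower in Ctrl IP. Over all genes, 35.3% were higher and 35.7% lower in that comparison.

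Differences between groups are log2 fold changes from edgeR's quasi-likelihood test, and adjusted p is the Benjamini-Hochberg value over all genes tested, called below 0.05. Standard errors (SE) were derived from that test, as the absolute log2 fold change divided by the square root of its F statistic. Group levels are mean ± SD.

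Collagen genes of most classes were detected in bulk cortex. In P24 Ctrl cortex, 39 of the 44 had a mean of at least 1 CPM and 17 a mean of at least 10 CPM, and at P17 these counts were 40 and 19 in Ctrl. In the deeper TRAP libraries the levels were lower, with 24 members at 1 CPM or more in Ctrl Input and 19 in Ctrl IP. Different genes were compared only in relation to exonic length, the union of all annotated exons of a gene and not the length of its expressed transcripts. The study primed bulk cDNA with oligo-dT, and whether counts scaled with that length was not tested, so the order is approximate. On that scale the highest in P24 Ctrl cortex was Col6a6, a chain of type VI collagen, at 31.1 ± 6.25 CPM per kb (SD, n = 4). Col6a1, another type VI chain, followed at 12.2 ± 0.879 CPM per kb, with no overlap between the mice of those genes. Col4a2 and Col4a1, the ubiquitous chains of vascular basement membrane, stood at 10.1 ± 1.03 and 7.92 ± 0.693 CPM per kb, again without overlap, while Col4a2 overlapped Col6a1. Among the 15 highest, neighbours from Col4a1 downwards overlapped, through Col1a1, the main chain of type I collagen, at 4.43 ± 2.58 CPM per kb and Col23a1, a transmembrane collagen, at 3.46 ± 0.149 CPM per kb.

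In ribosome-bound RNA the order was another. In Ctrl IP the highest level per length was that of Col9a3, a chain of the fibril-associated type IX, at 1.54 ± 0.399 CPM per kb (SD, n = 3), followed by Col6a6 at 1.28 ± 0.342, Col9a2 at 1.13 ± 0.157 and Col23a1 at 0.884 ± 0.167 CPM per kb, and these neighbours overlapped. In cKO IP the first place was held by Col5a3, the alpha chain of type V collagen that is found in pericellular matrix, at 4.10 ± 0.949 CPM per kb. It overlapped Col6a6, at 3.64 ± 3.03 CPM per kb, whose mice differed widely among themselves.

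**Figure D1:**
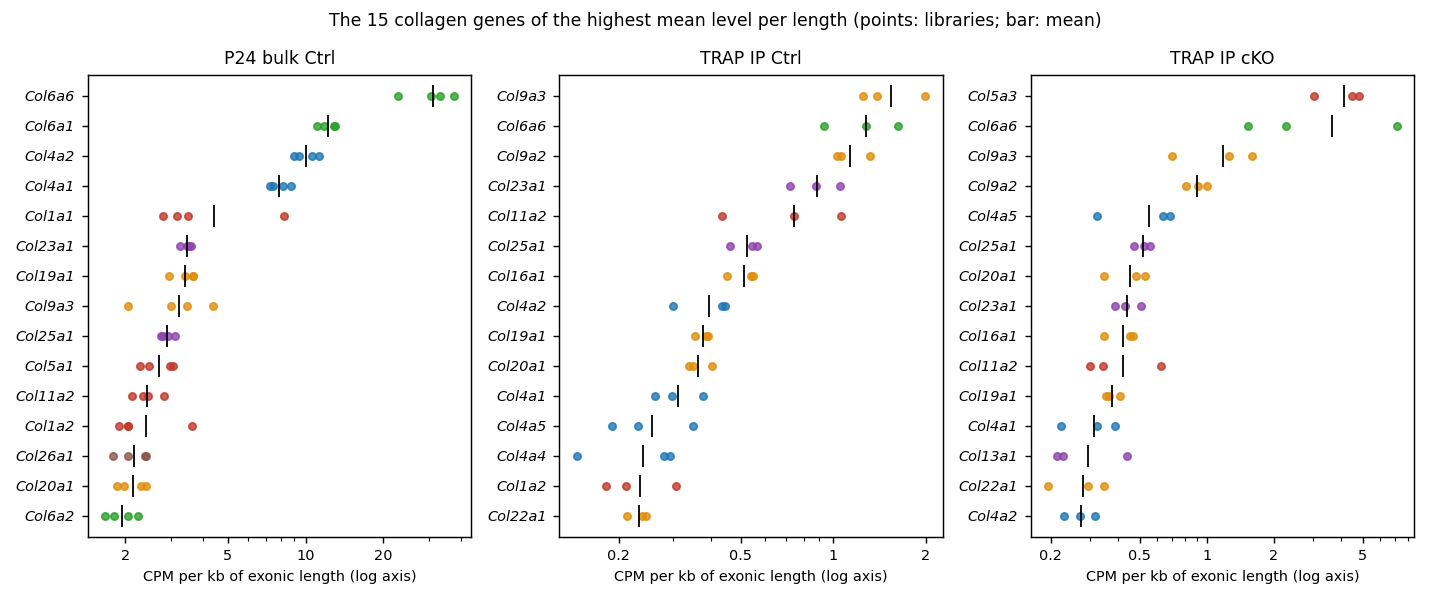
The 15 collagen genes with the highest level per length (horizontal log axis, CPM per kb of exonic length) in P24 bulk Ctrl, TRAP IP Ctrl and TRAP IP cKO cortex, with 1 point per mouse and colour for collagen class. Col6a6 leads in bulk Ctrl at 31.1 CPM per kb and Col5a3 leads in cKO IP at 4.10 CPM per kb.

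Among the members tested at P24, the gene with the largest difference between genotypes was Col5a3. The gene lies at chr9:20770050-20815067 on the minus strand (GRCm38). In bulk cortex of the 4 P24 Ctrl mice its level was 2.13, 2.06, 2.48 and 2.33 CPM, and in the 4 cKO mice it was 4.58, 16.5, 17.2 and 24.4 CPM. All cKO mice lay above all Ctrl mice, and cKO replicate 1 stood closest to the Ctrl range. The group levels were 15.7 ± 8.20 CPM in cKO and 2.25 ± 0.19 CPM in Ctrl (SD, n = 4 per genotype), a log2 fold change of 2.79 (SE 0.42, adjusted p = 0.00517). Permuting the genotypes over the 8 mice (exact, two-sided, on mean CPM) gave p = 0.0286, the smallest that 4 against 4 can give. Groups without overlap always give that value, and Col4a5, Col20a1, Col24a1 and the uncalled Col17a1 had it too. As Col5a3 was named for its large difference, this p adds no separate support. Without cKO replicate 1 the log2 fold change was 3.10.

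The TRAP libraries held the same gene at a high level in the cKO pull-down. In Ctrl IP its level was 0.753, 0.416 and 0.234 CPM, from 20, 11 and 6 counts, and in cKO IP it was 32.6, 20.6 and 30.6 CPM, from 765, 459 and 788 counts. The groups lay far apart, at 0.47 ± 0.26 CPM in Ctrl and 27.9 ± 6.46 CPM in cKO (SD, n = 3 per genotype), with a log2 fold change of 5.89 (SE 0.30, adjusted p = 1.61e-06). In Input, the Ctrl mice had 0.295, 0.223 and 0.0514 CPM, from 7, 4 and 1 counts, and the cKO mice 4.85, 4.81 and 5.02 CPM, from 109, 113 and 142 counts. The log2 fold change in Input was 4.61 (SE 0.39, adjusted p = 0.00649). That Input call was lost without Ctrl replicate 2. In IP and in Input the gene passed the filter on low counts through its cKO libraries, and it was not tested where 10 counts were asked of every library.

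Within cKO mice Col5a3 was higher in IP than in the Input of the same mice, with a log2 difference of 2.50 (SE 0.21, adjusted p = 2.69e-05). Ctrl levels were too low for the same comparison to pass the filter on low counts. The difference between genotypes in IP was not shown to exceed that in Input, since the fraction by genotype interaction was 1.27 on the log2 scale (SE 0.66, adjusted p = 0.620).

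At P17 the difference did not pass the test over all genes. Col5a3 was at 2.10, 1.76, 1.66 and 2.05 CPM in the Ctrl mice and at 2.64, 2.73, 4.31 and 5.11 CPM in the cKO mice, again without overlap. The means were 1.89 ± 0.22 and 3.70 ± 1.21 CPM (SD, n = 4 per genotype), with a log2 fold change of 0.96 (SE 0.25, unadjusted p = 0.0022, adjusted p = 0.488 by edgeR). The exact permutation p was 0.0286, the smallest possible without pairing, which groups of 4 without overlap always give. That permutation left out the replicate numbers, which pair the samples at this age. Col5a3 was called in 0 of 15 alternatives at P17, the replicate number as a block among them. The lowest adjusted p over these edgeR and DESeq2 fits was 0.0914. The age by genotype interaction, which asks whether the difference at P24 exceeded that at P17, was 1.82 on the log2 scale (SE 0.63, adjusted p = 0.600). Leaving out P24 cKO replicate 1 moved it to 2.13 with adjusted p = 0.00176, so that call turned on 1 library.

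**Figure D2:**
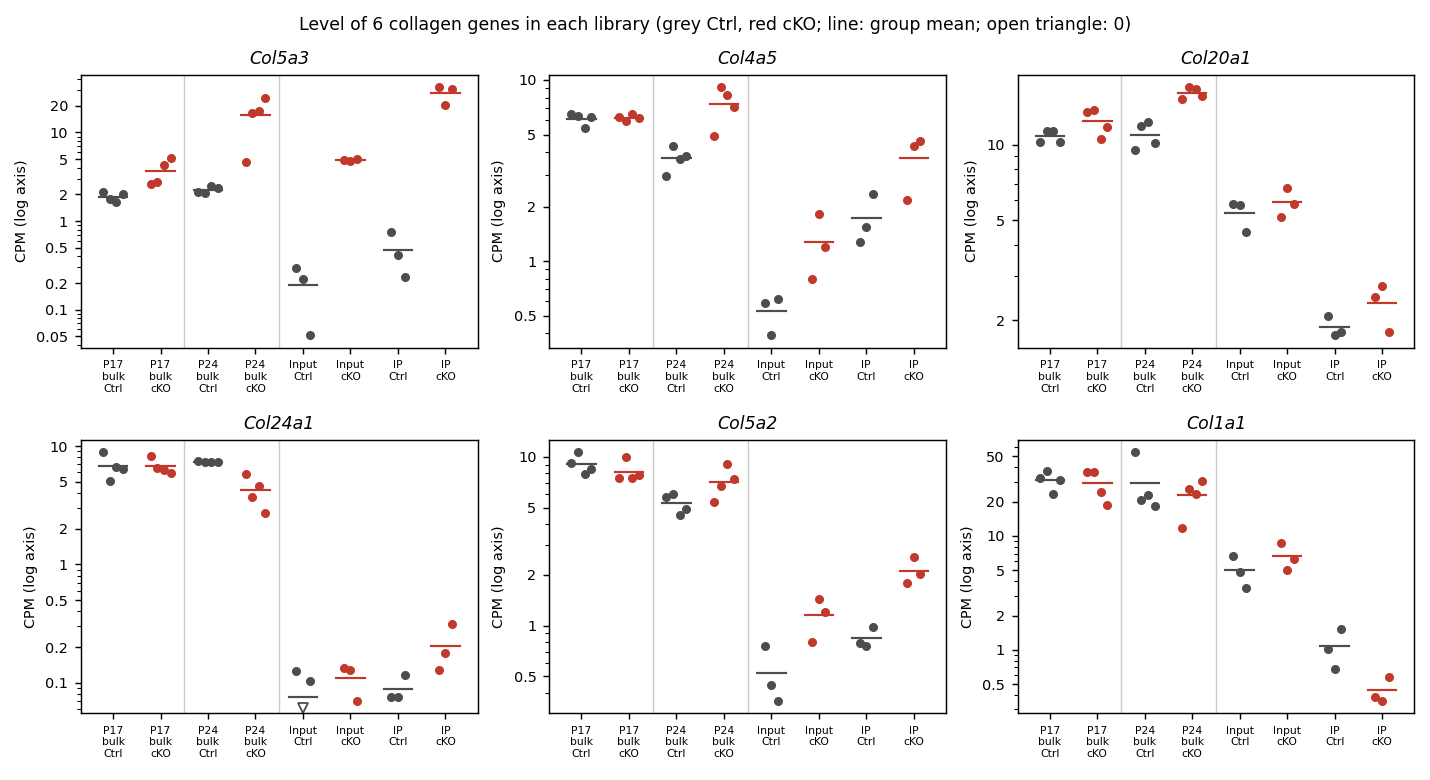
Level of 6 collagen genes (vertical log axis, CPM) in each of the 28 libraries, grey for Ctrl and red for cKO, with a line at the group mean and an open triangle for a level of 0. For Col5a3 the 4 P24 cKO mice sit at 4.58 to 24.4 CPM above Ctrl mice at 2.06 to 2.48 CPM, and the 3 cKO IP libraries at 20.6 to 32.6 CPM above Ctrl IP libraries at 0.234 to 0.753 CPM.

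At P24, 42 of the 44 members passed the filter on low counts (Col2a1, the main cartilage collagen, and Col10a1, of growth plate cartilage, did not). Of these, 3 were higher and 1 lower in cKO, which is 9.52% of those tested beside 1.72% of all 22494 genes tested at this age. In the higher direction alone all genes passed at 1.26%, and in the lower at 0.462%. The median log2 fold change over the members tested was -0.03, beside 0.00 over all genes. The calls were Col5a3, Col4a5, Col20a1 and Col24a1.

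The gene starts of the called members are shown with the 250 bases before each RefSeq start site (GRCm38.p6), read 5′ to 3′ on the gene's strand, because these 4 genes are those whose bulk RNA changed, and with Col4a6 because it starts beside Col4a5 on the other strand. Capitals mark matches, on either strand, to a GC box (GGGCGG) or a CCAAT box (CCAAT).
Col5a3, chr9:20815068-20815317, minus strand: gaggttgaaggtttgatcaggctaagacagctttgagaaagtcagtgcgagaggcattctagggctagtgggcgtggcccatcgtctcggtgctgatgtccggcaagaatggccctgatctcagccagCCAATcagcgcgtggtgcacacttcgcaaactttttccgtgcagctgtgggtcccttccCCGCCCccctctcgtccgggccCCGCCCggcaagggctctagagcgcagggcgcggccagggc
Col4a5, chrX:141475169-141475418, plus strand: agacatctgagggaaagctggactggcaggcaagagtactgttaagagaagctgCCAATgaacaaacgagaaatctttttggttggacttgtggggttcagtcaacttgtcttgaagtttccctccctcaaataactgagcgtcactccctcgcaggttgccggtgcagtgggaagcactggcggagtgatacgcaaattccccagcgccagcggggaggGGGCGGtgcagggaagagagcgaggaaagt
Col4a6, chrX:141474077-141474326, minus strand: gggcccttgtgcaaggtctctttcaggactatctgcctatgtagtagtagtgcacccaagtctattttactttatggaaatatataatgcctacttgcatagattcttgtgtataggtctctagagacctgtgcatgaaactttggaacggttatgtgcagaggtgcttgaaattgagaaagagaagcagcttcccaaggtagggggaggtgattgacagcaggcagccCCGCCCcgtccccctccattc
Col20a1, chr2:180986285-180986534, plus strand: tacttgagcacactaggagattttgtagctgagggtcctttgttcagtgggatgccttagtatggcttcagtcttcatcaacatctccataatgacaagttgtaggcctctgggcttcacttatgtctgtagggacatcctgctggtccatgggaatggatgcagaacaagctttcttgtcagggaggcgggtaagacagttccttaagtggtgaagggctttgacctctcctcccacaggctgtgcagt
Col24a1, chr3:145292222-145292471, plus strand: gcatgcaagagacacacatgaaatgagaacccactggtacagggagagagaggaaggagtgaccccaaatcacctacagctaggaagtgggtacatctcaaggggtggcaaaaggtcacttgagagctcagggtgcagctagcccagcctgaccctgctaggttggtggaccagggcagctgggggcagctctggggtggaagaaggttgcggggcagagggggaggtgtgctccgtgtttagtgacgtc

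The window of Col5a3 held 2 GC boxes, 63 and 41 bases before the start, and a CCAAT box at 122 bases. That of Col4a5 held a GC box at 30 bases and a CCAAT box at 196 bases, counted from a RefSeq start that lies 34 bases from GENCODE's. The Col4a6 window held a GC box at 21 bases, and those of Col20a1 and Col24a1 held neither motif. Over the 38 such windows of the 35 collagen genes with an entry, 57.9% held a GC box, beside 32.7% of all 32851 windows, and 34.2% held a CCAAT box, beside 33.8%. The TATA box (TATAAA) was in 13.2% of collagen windows and 12.4% of all, the AP-1 motif (TGANTCA) in 2.63% and 6.75%, and the STAT motif (TTCNNNGAA) in 5.26% and 7.02%, each sought on both strands. None of these last 3 stood in the Col5a3 window, and a match or its lack only describes these letters.

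Col4a5 encodes a chain of the type IV network that also holds the chains of Col4a3 and Col4a4, and its loss causes Alport syndrome of the kidney. The gene lies on the X chromosome at chrX:141475385-141689234. In P24 bulk cortex the Ctrl mice had 2.94, 4.34, 3.68 and 3.79 CPM and the cKO mice 4.92, 9.15, 8.28 and 7.08 CPM. The groups did not overlap, and cKO replicate 1 was again the nearest to Ctrl. The means were 3.69 ± 0.58 and 7.36 ± 1.83 CPM (SD, n = 4 per genotype), with a log2 fold change of 0.99 (SE 0.19, adjusted p = 0.0226). The call was lost on leaving out any of 6 of the 8 libraries (Ctrl replicates 1, 3 and 4 and cKO replicates 2, 3 and 4). It held without Ctrl replicate 2 and without cKO replicate 1, where the log2 fold change was 1.14.

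At P17 the genotypes overlapped, with 5.43 to 6.49 CPM in Ctrl and 5.90 to 6.47 CPM in cKO and a log2 fold change of 0.02 (SE 0.12, adjusted p = 1). The age by genotype interaction of Col4a5 was 0.97 on the log2 scale (SE 0.23, unadjusted p = 0.000619, adjusted p = 0.270 by edgeR), and it passed with the replicate number as a block, at 0.96 with adjusted p = 0.0376. It also passed without P24 cKO replicate 1, at 1.12 with adjusted p = 0.00352. The tables of the ages were scaled apart, so levels at P17 and P24 are given side by side with no test.

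In the pull-down Col4a5 was likewise higher in cKO. The Ctrl IP libraries had 1.28, 1.55 and 2.34 CPM and the cKO IP libraries 2.18, 4.30 and 4.62 CPM, so that 1 mouse of each genotype overlapped. The log2 fold change was 1.11 (SE 0.31, adjusted p = 0.0274), and the call was lost on leaving out either of Ctrl replicates 1 and 2 or either of cKO replicates 2 and 3, and with all TRAP libraries in 1 fit. In Input the corresponding value was 1.25 (SE 0.40), which did not pass the test over all genes (adjusted p = 0.812). Its neighbour Col4a6, whose start lies 1309 bases away on the opposite strand, had 2.28 to 3.09 CPM in P24 Ctrl and 2.43 to 3.62 CPM in P24 cKO, with a log2 fold change of 0.20 (adjusted p = 0.692).

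Col20a1, a fibril-associated collagen, was at 9.56, 11.8, 12.4 and 10.1 CPM in P24 Ctrl and at 15.2, 17.03, 16.8 and 15.7 CPM in P24 cKO. All 4 cKO mice lay above the Ctrl mice within a narrow range. The log2 fold change was 0.56 (SE 0.09, adjusted p = 0.00986), with means of 10.98 ± 1.35 and 16.2 ± 0.86 CPM (SD, n = 4 per genotype), and it was called without any 1 of the 8 libraries. At P17 the log2 fold change was 0.20 (SE 0.11, adjusted p = 1), in IP 0.32 (SE 0.22, adjusted p = 0.350) and in Input 0.15 (SE 0.20, adjusted p = 0.856).

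Col24a1, a fibrillar collagen described in developing bone, was the member called as lower. It was at 7.50, 7.36, 7.28 and 7.36 CPM in P24 Ctrl and at 5.80, 3.74, 4.59 and 2.72 CPM in P24 cKO. The Ctrl mice were nearly alike, and all cKO mice lay below them. The log2 fold change was -0.80 (SE 0.18, adjusted p = 0.0474), with means of 7.38 ± 0.09 and 4.21 ± 1.31 CPM (SD, n = 4 per genotype). The call was lost on leaving out any library other than cKO replicate 1 (without it, -0.999) and with scaling by library size alone (adjusted p = 0.0560). At P17 the levels were 5.09 to 8.86 CPM in Ctrl and 5.94 to 8.27 CPM in cKO. In TRAP the gene had 0 to 3 counts in every Ctrl library and was not tested. In cKO IP it was at 0.128 to 0.311 CPM, above the 0.0753 to 0.117 CPM of Ctrl IP, with few counts. The genotypes overlapped in Input. Col17a1 was not called in P24 bulk cortex (-0.87, SE 0.29, adjusted p = 0.196). It was at 0.405 to 0.835 CPM in cKO, below the 0.883 to 1.58 CPM of Ctrl.

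In the 4 genes that were called, cKO replicate 1 was the cKO mouse nearest to the Ctrl levels. The same mouse was the lowest of the 8 at P24 in the summed markers of fibroblasts (108 CPM beside 128 to 162 CPM), mural cells (153 CPM beside 171 to 185 CPM) and endothelium (112 CPM beside 121 to 131 CPM). Without this mouse, 7 members were called, the added ones being Col3a1 (0.66, adjusted p = 0.0416), Col6a1 (0.40, adjusted p = 0.0183) and Col26a1 (-0.61, adjusted p = 0.00928). Leaving out any 1 of 6 other libraries left 2 calls, Col5a3 and Col20a1, and leaving out Ctrl replicate 2 left 3. Calls over all genes moved as well, from 216 to 952 on leaving out 1 library, beside 388 in the main fit. At P24, 3 of 8 astrocyte markers were called higher and 2 lower, beside 1.26% and 0.462% of all genes, and their sum was 3641 to 4251 CPM in Ctrl and 3251 to 3612 CPM in cKO, while no fibroblast, mural or endothelial marker was called. The part of these cells in the collagen results was not tested.

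The collagens that make up most fibrils and vessel sheaths did not pass the test at P24. Col1a1 was at 54.3, 20.8, 22.9 and 18.4 CPM in Ctrl and at 11.9, 25.9, 23.3 and 30.3 CPM in cKO, so that Ctrl replicate 1 lay above all others and the rest of the groups overlapped. Its log2 fold change was -0.35 (SE 0.34, adjusted p = 0.728), and it turned to 0.14 without that Ctrl mouse. Col1a2, the second chain of type I, had 45.0 CPM in that mouse and 23.4 to 25.5 CPM in the other Ctrl mice, against 17.7 to 27.8 CPM in cKO, with a log2 fold change of -0.32 (SE 0.20, adjusted p = 0.543).

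Of 7 genes of bone-forming cells, a list chosen after its values were seen, 5 were higher in that Ctrl library than in any of the other 7 P24 libraries. Bglap, the gene of osteocalcin, was at 3.31 CPM there and at 0 to 0.750 CPM in the others, Bglap2 at 3.38 against 0.146 to 1.05 CPM, and Ibsp, of bone sialoprotein, at 1.25 against 0 to 0.300 CPM. Sp7 (3.97 against 0.858 to 3.86 CPM) and Phex (1.76 against 0.875 to 1.58 CPM) exceeded the others by little, and Alpl (7.06 against 5.37 to 7.58 CPM) and Dmp1 (3.53 against 2.25 to 4.57 CPM) lay within their range. The 7 listed genes summed to 24.3 CPM in that library and to 12.7 to 15.3 CPM in the others, while 9 fibroblast markers summed to 142 to 162 CPM over the 4 Ctrl mice. The part of such cells in the type I collagen levels was not tested.

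Col3a1, of type III collagen, was at 6.30 to 9.63 CPM in P24 Ctrl and at 5.53, 14.3, 9.60 and 14.8 CPM in P24 cKO, with a log2 fold change of 0.43 (SE 0.26, adjusted p = 0.518). The vascular chains were close between genotypes, Col4a1 at 59.1 ± 5.17 CPM in Ctrl and 62.5 ± 8.87 CPM in cKO (0.08, SE 0.10, adjusted p = 0.799) and Col4a2 at 66.6 ± 6.79 and 71.7 ± 7.78 CPM (0.11, SE 0.09, adjusted p = 0.677). Col6a1 was at 53.4 ± 3.85 CPM in Ctrl and 64.1 ± 15.1 CPM in cKO (0.26, SE 0.14, adjusted p = 0.465). The other basement membrane genes, like these, had positive log2 fold changes, all 6 of 6 with a median of 0.17, but only Col4a5 passed the test. Fibrillar members had a median of -0.16 over the 10 tested.

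**Figure D3:**
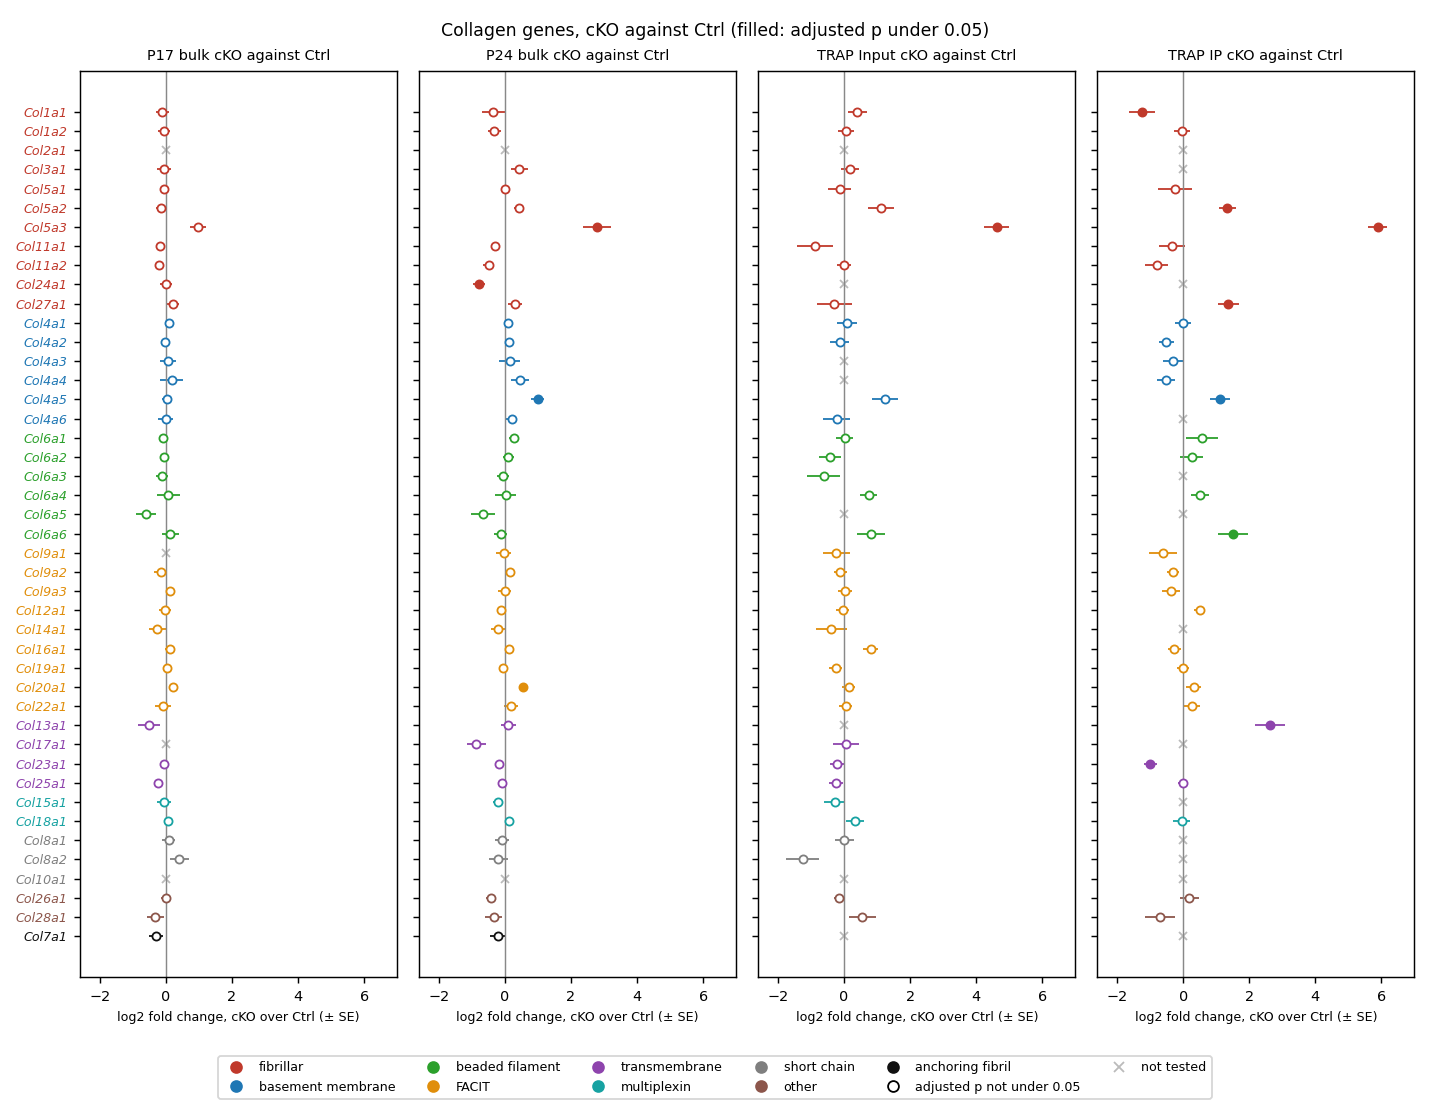
Log2 fold change of cKO over Ctrl (horizontal axis, ± SE) for all 44 collagen genes by class in the 4 comparisons, filled where adjusted p is under 0.05 and with a grey cross where the gene was not tested. The calls number 0 at P17, 4 at P24, 1 in Input and 8 in IP, and Col5a3 has the highest value in each panel.

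At P17, none of the 40 members tested passed, beside 0.0943% of all genes (20 of 21201), of which 0.0660% were higher and 0.0283% lower. At an unadjusted p under 0.05 there were 3 of 40, namely Col5a3, Col11a2 and Col25a1, beside 4% of all genes. DESeq2 called 0 members. The always reported genes had log2 fold changes of -0.11 for Col1a1 (SE 0.19), -0.06 for Col1a2 (SE 0.18), -0.05 for Col3a1 (SE 0.21), 0.09 for Col4a1 (SE 0.07), -0.04 for Col4a2 (SE 0.07) and -0.08 for Col6a1 (SE 0.11), each with adjusted p = 1. Replicates 1 and 2 had more Col3a1 than replicates 3 and 4 in both genotypes, at 20.3, 19.7, 12.4 and 13.8 CPM in Ctrl and 19.9, 20.2, 13.4 and 10.9 CPM in cKO. The same numbers deviated together over all genes at this age, and no collagen gene was called with the number as a block either.

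Between the ages, the ranges of the Ctrl mice were set side by side, with no test, for the 40 members tested at both. They did not overlap for 10 members, 25.0% beside 23.7% of all genes, a share near that of all genes. Of these, 9 were higher at P17 (22.5% beside 14.0%) and 1 at P24 (2.50% beside 9.73%). The 9 included 3 type IV genes, with Col4a1 at 79.6 to 94.8 CPM at P17 and 54.2 to 65.4 CPM at P24, Col4a2 at 81.2 to 91.5 and 59.5 to 74.3 CPM, and Col4a5 at 5.43 to 6.49 and 2.94 to 4.34 CPM. The others were Col3a1 (12.4 to 20.3 and 6.30 to 9.63 CPM), Col5a2 (7.86 to 10.6 and 4.502 to 6.04 CPM), Col9a3 (21.04 to 23.5 and 7.87 to 16.9 CPM), Col18a1 (8.42 to 11.05 and 6.83 to 7.95 CPM), Col22a1 (3.21 to 3.95 and 2.401 to 2.79 CPM) and Col6a3 (4.78 to 6.94 and 4.05 to 4.73 CPM). The member higher at P24 was Col27a1, at 3.32 to 4.26 CPM at P17 and 4.93 to 5.98 CPM at P24. Among the 30 that overlapped, Col25a1, a transmembrane collagen of neurons, was at 32.5 to 43.0 CPM at P17 and 35.6 to 40.2 CPM at P24, and Col19a1, a fibril-associated collagen made by interneurons, at 20.0 to 28.3 and 20.3 to 25.2 CPM.

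The age by genotype interaction called none of 42 members, beside 0.0470% of all genes (0.0342% higher and 0.0128% lower). At an unadjusted p under 0.05 there were 5 of 42, beside 6.32% of all genes, and DESeq2 called 0 members. The values were -0.25 for Col1a1, -0.26 for Col1a2, 0.48 for Col3a1, -0.02 for Col4a1, 0.14 for Col4a2 and 0.34 for Col6a1 on the log2 scale, and -0.80 for Col24a1 (SE 0.26, adjusted p = 0.584) and 0.36 for Col20a1 (SE 0.14, adjusted p = 0.681).

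The IP libraries ask which collagen RNAs were on ribosomes of the tagged cells and whether these differed between genotypes. Between cKO and Ctrl IP, 31 members were tested and 8 were called, 6 higher and 2 lower. That is 25.8% of those tested beside 20.0% of all 23864 genes, with 19.4% higher beside 11.6% of all genes and 6.45% lower beside 8.42%. The share called was thus near that of all genes. The 13 members that were not tested were Col2a1, Col3a1, Col4a6, Col6a3, Col6a5, Col7a1, Col8a1, Col8a2, Col10a1, Col14a1, Col15a1, Col17a1 and Col24a1.

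After Col5a3, the gene with the largest rise was Col13a1, a transmembrane collagen known from the neuromuscular junction. It was at 0.339, 0.189 and 0.117 CPM in Ctrl IP and at 0.981, 2.02 and 1.05 CPM in cKO IP, a log2 fold change of 2.61 (SE 0.45, adjusted p = 0.00294). The groups did not overlap, and the gene passed the filter on low counts through its cKO libraries, since the Ctrl levels lay close to what 3 counts give. In bulk P24 cortex the same gene had a log2 fold change of 0.10 (SE 0.22, adjusted p = 0.902). Within cKO mice it was higher in IP than in Input by 1.79 (adjusted p = 0.0069).

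Col5a2, whose chain forms type V collagen with that of Col5a1 and limits fibril width, was at 0.791, 0.756 and 0.976 CPM in Ctrl IP and at 1.79, 2.55 and 2.02 CPM in cKO IP. Its log2 fold change was 1.34 (SE 0.25, adjusted p = 0.0044), without overlap. Col5a1 itself was at 0.189 to 0.664 CPM in Ctrl IP and 0.256 to 0.493 CPM in cKO IP (-0.25, SE 0.50, adjusted p = 0.775). Of the 3 type V genes, therefore, 2 passed the test in IP and Col5a1 did not. In Input the log2 fold change of Col5a2 was 1.11 (SE 0.40, adjusted p = 0.812) and in bulk P24 cortex 0.42 (SE 0.16, adjusted p = 0.281).

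Col27a1, a fibrillar collagen of cartilage, rose from 0.38 ± 0.07 CPM in Ctrl IP to 0.99 ± 0.12 CPM in cKO IP (SD, n = 3 per genotype; 1.37, SE 0.32, adjusted p = 0.013). The gene passed the filter on low counts through its cKO libraries alone, and its call was lost without Ctrl replicate 2 and with all TRAP libraries in 1 fit. Col6a6 was at 8.58, 14.8 and 11.7 CPM in Ctrl IP and at 14.0, 65.2 and 20.8 CPM in cKO IP, where cKO replicate 2 stood far above the rest and the groups overlapped. Its log2 fold change of 1.51 (SE 0.45, adjusted p = 0.0373) fell to 0.60 (adjusted p = 0.139) without that library, and the call was also lost without any of the 3 Ctrl libraries, by DESeq2 and with all TRAP libraries in 1 fit. In Input another cKO mouse, replicate 1, was the high one, at 43.8 CPM beside 11.4 to 16.1 CPM in the other 5 Input libraries.

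The members called as lower were Col23a1 and Col1a1. Col23a1, a transmembrane collagen, was at 4.14, 5.02 and 6.05 CPM in Ctrl IP and at 2.22, 2.46 and 2.91 CPM in cKO IP, a log2 fold change of -0.99 (SE 0.20, adjusted p = 0.00601). The groups were apart, and the call held without any 1 of the 6 libraries. Col1a1 was at 1.02, 0.680 and 1.52 CPM in Ctrl IP and at 0.384, 0.358 and 0.582 CPM in cKO IP, from 18 to 39 counts against 8 to 15. Its log2 fold change was -1.25 (SE 0.39, adjusted p = 0.0424), and the call was lost on leaving out Ctrl replicate 1 or 3 or cKO replicate 1 or 2 and with all TRAP libraries in 1 fit. The gene passed the filter on low counts through its Ctrl libraries alone.

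Among the other members always reported, Col1a2 was at 2.91 CPM in Ctrl IP and 2.81 CPM in cKO IP (-0.04, SE 0.24, adjusted p = 0.936). Col4a1 was at 2.33 CPM in both (0.00, SE 0.25, adjusted p = 0.994, a sign that turned with scaling by library size alone, under which the median of all genes fell by 0.11). Col4a2 was at 2.60 and 1.80 CPM (-0.51, SE 0.23, adjusted p = 0.144) and Col6a1 at 0.47 and 0.70 CPM (0.57, SE 0.47, adjusted p = 0.442). Col3a1 was at 0.24 and 0.17 CPM and not tested.

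Beside these differences, 2 of 5 tested mural cell markers were higher and 3 of 8 astrocyte markers lower in cKO IP, where 11.6% of all genes were higher and 8.42% lower, and no fibroblast or endothelial marker was called. The summed level of mural markers was 26.2 to 36.9 CPM in Ctrl IP and 37.0 to 47.0 CPM in cKO IP, that of fibroblast markers 10.1 to 10.5 and 8.85 to 12.5 CPM, and that of astrocyte markers 8512 to 11235 and 7744 to 10328 CPM. Their part in the collagen results was not tested.

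In Input, 36 members were tested and Col5a3 alone was called, 2.78% of those tested beside 0.109% of all genes (0.0923% higher and 0.0168% lower). At an unadjusted p under 0.05 there were 6 of 36, of which 5 were higher, beside 4.03% of all genes in either direction. The log2 fold changes were 0.41 for Col1a1 (SE 0.29, adjusted p = 0.812), 0.06 for Col1a2, 0.17 for Col3a1, 0.09 for Col4a1, -0.13 for Col4a2 and 0.02 for Col6a1. Col16a1, a fibril-associated collagen, was at 1.59 to 2.03 CPM in Ctrl Input and 2.68 to 3.49 CPM in cKO Input (0.81, SE 0.23, adjusted p = 0.704), and the groups did not overlap. The summed astrocyte markers did not overlap either, at 834 to 958 CPM in Ctrl Input and 1142 to 1478 CPM in cKO Input, and 1 of the 8, Aldoc, was called (0.92, SE 0.13, adjusted p = 0.0485). The 3 choroid plexus markers summed to 3.90 to 6.67 CPM in Ctrl and 7.17 to 13.4 CPM in cKO, with no call, and fibroblast markers to 50.4 to 61.3 and 46.7 to 51.4 CPM. The part of these cells in the Input levels was not tested.

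As to the cell of origin, IP was compared with Input of the same genotype. Input differed from bulk cortex, which was scaled apart. Endothelial markers summed to 10.0 to 12.2 CPM in Ctrl Input and 121 to 131 CPM in P24 bulk Ctrl. Mural markers summed to 21.5 to 27.7 and 171 to 183 CPM, and astrocyte markers to 834 to 958 and 3641 to 4251 CPM. Neuronal markers were closer, at 5066 to 5806 and 5753 to 6125 CPM. The cause was not tested, and the IP results are relative to Input, not to whole cortex. In Ctrl mice 35 members were tested, of which 4 were higher and 20 lower in IP. That is 68.6% beside 71.0% of all genes, with 11.4% higher beside 35.3% of all genes and 57.1% lower beside 35.7%. The median log2 difference was -0.89 over the members tested and -0.03 over all genes. The lower members were thus 20 of the 44, with 9 not tested. Of the 24 called, 14 met the filter on low counts in IP and in Input alike, 13 of them lower. The other 10 passed only through the fraction in which they were high, 3 through IP and 7 through Input, so a difference was built into their choice, and these counts describe the genes that could be tested.

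The members that were higher in Ctrl IP were 3 type IV genes, which passed the filter through IP alone, and Col16a1, which passed in both fractions. Col4a4 was at 2.97, 1.55 and 3.12 CPM in IP, from 79, 41 and 80 counts, and at 0.422, 0.167 and 0.668 CPM in Input of the same mice, from 10, 3 and 13 counts, a log2 difference of 2.56 (SE 0.41, adjusted p = 0.000131). In every mouse the IP value was the higher. Col4a5 was at 1.72 ± 0.55 CPM in IP and 0.53 ± 0.12 CPM in Input (1.66, SE 0.33, adjusted p = 0.0008), and Col4a3 at 0.83 ± 0.10 and 0.34 ± 0.08 CPM (1.25, SE 0.35, adjusted p = 0.00717). These 3 genes encode the chains that assemble together in the type IV network of the kidney filter. Col16a1 was at 3.46 ± 0.36 and 1.82 ± 0.22 CPM (0.91, SE 0.20, adjusted p = 0.00161).

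Col4a3 and Col4a4 start 72 bases apart on opposite strands, and Col4a1 and Col4a2 start 21 bases apart with 22 exonic bases in common. Of Col4a3's exons, 5.65% also lie under a transcript on the other strand, and of Col9a3's exons 6.07% lie under Tcfl5. The sources used here do not say whether reads were counted by strand, so reads of such overlaps cannot be told apart.

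The other pair of type IV chains went the other way. Col4a1 was at 2.33 ± 0.44 CPM in Ctrl IP and 4.88 ± 1.19 CPM in Ctrl Input (-1.08, SE 0.23, adjusted p = 0.00116), and Col4a2 at 2.60 ± 0.52 and 7.10 ± 1.67 CPM (-1.46, SE 0.23, adjusted p = 0.000108). Among the lower members that met the filter in both fractions were also Col6a2 (-3.09), a chain of type VI collagen, Col26a1 (-2.30) and Col1a1 (-2.24), of the major fibrils. Other lower members passed through Input alone and had few counts in IP, so that their log2 differences are uncertain in size. Of these, Col6a1 went from 4.82 CPM in Input to 0.47 CPM in IP (-3.36, SE 0.31) and Col17a1, a transmembrane collagen, had 15, 8 and 10 counts in Input and 0, 2 and 5 in IP (-2.53, SE 0.65). Col3a1, at 20 to 34 counts in Input and 4 to 9 in IP, had -2.44, Col15a1, which lies at the outer face of basement membranes, had 16 to 29 and 2 to 13 counts (-2.02), and Col6a3, of type VI, 17 to 31 and 5 to 10 counts (-1.97). Col1a2 was lower by less (-1.02, SE 0.25, adjusted p = 0.00302).

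Fibroblast markers were lower in Ctrl IP than in Ctrl Input as well, with a median log2 difference of -2.49, summing to 10.1 to 10.5 CPM in IP and 50.4 to 61.3 CPM in Input. Endothelial markers had a median of -1.27 and mural markers of 0.43. Neuronal markers had a median of -1.76, beside which Col25a1 and Col19a1 had log2 differences of -1.29 and -1.07. The part of RNA from untagged cells in the IP levels of these genes was not tested.

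In cKO mice 6 members were higher and 17 lower in IP, of 35 tested, which is 65.7% beside 56.3% of all genes, with 17.1% higher beside 27.8% and 48.6% lower beside 28.5%. Besides Col5a3, the higher ones were Col4a4 (2.27, adjusted p = 0.000549), Col13a1, Col4a5 (1.51, adjusted p = 0.0101), Col4a3 (1.21, adjusted p = 0.025) and Col5a2 (0.86, adjusted p = 0.0408). Col4a4, Col13a1 and Col4a3 passed the filter on low counts through IP alone. With the mouse as a block, which the shared mouse calls for, Col4a3 was not called (adjusted p = 0.0596), and its call was also lost by DESeq2, with no filter beyond 1 count and without replicate 1 or 2 of Input or of IP. The call of Col5a2 was lost without Input replicate 3 and without any of the 3 IP libraries. Of the 17 lower members, 11 met the filter in both fractions, among them Col6a2 (-2.41), Col26a1 (-1.98) and Col4a2 (-1.85), and 6 passed through Input alone, among them Col1a1 (-3.89, SE 0.32, adjusted p = 2.5e-05), Col3a1 (-3.12), Col6a1 (-2.81), Col5a1 (-1.96) and Col15a1 (-1.92). In cKO IP these 5 had 2 to 21 counts. Col1a2 was lower by -1.12 and Col4a1 by -1.18, the latter not called without Input replicate 2 or IP replicate 1. Col16a1, higher in Ctrl IP, was at 2.33 to 3.14 CPM in cKO IP and 2.68 to 3.49 CPM in cKO Input (-0.18, SE 0.23, adjusted p = 0.534).

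The fraction by genotype interaction asks whether these IP to Input differences changed with genotype, and it called none of 39 members, beside 0.0582% of all genes (0.0388% higher and 0.0194% lower). At an unadjusted p under 0.05 there were 7 of 39, beside 8.74% of all genes, and DESeq2 called 0 members. The lowest p was that of Col16a1 (-1.09, SE 0.29, adjusted p = 0.206), followed by values of 2.72 for Col13a1 (adjusted p = 0.238), -1.66 for Col1a1 (adjusted p = 0.278) and -0.78 for Col23a1 (adjusted p = 0.429). The remaining ones always reported were -0.10 for Col1a2, -0.68 for Col3a1, -0.09 for Col4a1, -0.39 for Col4a2 and 0.55 for Col6a1.

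Genes that act on collagens were taken from lists of the pathway. At P24, 2 of 29 tested biosynthesis genes rose in cKO cortex and none fell, beside 1.26% and 0.462% of all genes. These were Serpinh1, which encodes the chaperone Hsp47 (0.69, SE 0.13, adjusted p = 0.0157), and Plod3, a lysyl hydroxylase and glycosyltransferase (0.22, SE 0.05, adjusted p = 0.0495). Of 11 collagen receptors 2 rose, the discoidin domain receptor Ddr1 (0.65, SE 0.10, adjusted p = 0.00436) and the integrin subunit Itgb1 (0.53, SE 0.11, adjusted p = 0.0399). None of 17 basement membrane partners, 11 genes of breakdown and its inhibitors or 9 small leucine-rich proteoglycans passed, and medians of the 5 lists lay between -0.05 and 0.12. At P17 and in Input no gene of these lists passed.

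In cKO IP, 2 of 26 biosynthesis genes were higher than in Ctrl IP, 7.69% beside 11.6% of all genes, the prolyl hydroxylase P3h2 (1.19, SE 0.24, adjusted p = 0.00632) and the isomerase Ppib (0.42, SE 0.13, adjusted p = 0.0471). Of 10 receptors, Adgrg6 (1.16, SE 0.14, adjusted p = 0.000499), an adhesion receptor that binds type IV collagen, and Itgb1 (0.69, SE 0.15, adjusted p = 0.00826) were higher, 20.0% of the list. Among 11 genes of breakdown, both calls were inhibitors of metalloproteinases, Timp1 higher (1.54, SE 0.45, adjusted p = 0.0344) and Timp4 lower (-0.62, SE 0.09, adjusted p = 0.00133). Of 6 proteoglycans, Prelp fell (-1.60, SE 0.32, adjusted p = 0.00537). Beside the 11.6% of all genes that were higher and the 8.42% that were lower in IP, these counts are no result about the lists. Itgb1 was called both in bulk P24 cortex and in IP, while Serpinh1 and Ddr1 were called in bulk P24 cortex.

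Against Input, Ctrl IP was higher for 9 and lower for 7 of 27 biosynthesis genes, 33.3% and 25.9% beside 35.3% and 35.7% of all genes, with Serpinh1 at 2.63, Fkbp10, a collagen chaperone, at 2.54, P4ha3, a prolyl hydroxylase, at 2.49 and Ppib at 0.75, and with Mia3, which loads procollagen for export, at -1.49 and the procollagen peptidase Adamts2 at -2.24. Of 9 receptors 5 were higher and 2 lower, of 17 basement membrane partners 3 higher and 10 lower, of 11 breakdown genes 3 higher and 5 lower, and of 6 proteoglycans 2 higher and 2 lower. The matricellular protein gene Sparc (2.67) and the inhibitor genes Timp3 (2.62) and Timp4 (2.48) were among the higher ones, and the laminin gene Lamb1 (-1.30) and the heparan sulphate proteoglycan gene Agrn (-1.86) among the lower. In cKO mice the counts were 8 and 4 of 27, 6 and 3 of 11, 3 and 7 of 15, 3 and 4 of 11, and 1 and 2 of 6, in the same order, where 27.8% of all genes were higher and 28.5% lower.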

How the data were processed

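RNA-Seq of bulk cortex at P17 and P24 and TRAP-Seq at P24 were used. The authors mapped reads to mm10 with RNA STAR on Galaxy and deposited raw read counts per gene, with a file for each experiment. The counting tool, annotation and strand setting are not given in the sources used here. Of 53342 rows, 53237 matched GENCODE M21. A truncated identifier in the P24 file, with at most 0.000342% of a library, was left out. Collagen members, classes, pathway and marker lists were chosen with earlier results of these data known. Groups follow the sample labels.

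Counts were tested with edgeR 4.0.16 in R 4.3.3 (glmQLFit and glmQLFTest, two-sided, TMM factors, filterByExpr with a minimum count of 10 and total of 15), per comparison, with Benjamini-Hochberg adjustment over all genes tested. Interactions used the 16 bulk or 12 TRAP libraries. The fits of cKO against Ctrl in P24 bulk and in IP recovered known changes in counts simulated from the model they assume. Changes of other sizes and the other comparisons were not simulated. Named in each comparison were all called collagen genes, up to 8 in each direction, and Col1a1, Col1a2, Col3a1, Col4a1, Col4a2, Col5a3 and Col6a1; others named for their position, partner gene or pattern were chosen after values were seen. Alternatives were RLE factors, library size alone, DESeq2 1.42.0, other filters, the replicate number as a block, a fit of all libraries of a design, and leaving out each library. Replicates are separate mice, so p-values measure the spread between mice, and no 2 libraries of a group agreed within sampling noise (chi-square per degree of freedom of 2.79 to 89.8 over 36 pairs). At P17 libraries of the same number deviated together (correlations of 0.167 to 0.380), so the numbers pair the samples there. IP and Input of the same number are the same mouse. At P24 and between TRAP genotypes the labels give a shared number alone. Same-number correlations were 0.0286 to 0.218 at P24, 0.029 to 0.0912 between IP genotypes and -0.0354 to 0.0769 between Input genotypes. Whether these numbers pair the mice was not tested, and the main fits took no pairing into account. Motifs were sought by letters in RefSeq promoter windows, for which 9 of the 44 members had no entry. Values of the targeted gene are not reported here.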

Additional observations from a re-analysis of the deposited data

Results flagged for a closer look

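Over 40 sets of a named collagen gene in a bulk group of 4 mice, 2 had a mouse whose distance to its nearest neighbour divided by the range of the group exceeded Dixon's critical value, which chance passes in about 1 of 20 sets. Both were in the same library, P24 Ctrl replicate 1, where Col1a1 was at 54.3 CPM and Col1a2 at 45.0 CPM. Without that mouse the Ctrl means were 20.7 ± 2.26 CPM for Col1a1 and 24.8 ± 1.18 CPM for Col1a2 (SD, n = 3).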

How the results depend on the processing

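Counts of called collagen genes moved by over 1.5 times under these settings. In IP, cKO against Ctrl, they went from 8 to 5 with DESeq2, to 4 with at least 10 counts in every library and to 4 with all TRAP libraries fitted together. With at least 10 counts they were 0 in Input, 14 in Ctrl IP against Input and 14 in cKO IP against Input, where fewer genes were tested. The age interaction had 1 call, Col4a5, with the replicate block. Leaving out 1 library gave 2 to 7 calls at P24, 0 at P17, 5 to 8 in IP, 0 to 1 in Input, 24 to 25 and 20 to 25 for IP against Input in Ctrl and cKO, 0 to 2 for the age and 0 for the fraction interaction. In IP the 5 came without Ctrl replicate 2 or without cKO replicate 2. Calls over all genes on leaving out 1 library were 216 to 952 at P24, 11 to 19 at P17, 2633 to 4810 in IP and 4 to 112 in Input. For IP against Input they were 16154 to 17296 in Ctrl and 10973 to 16818 in cKO. The interactions had 4 to 149 such calls for age and 3 to 432 for fraction. The cause of the other moves was not tested.

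The replicate block left the P24 calls at 4 and otherwise added Col9a1 in Ctrl IP against Input and Col11a2 in IP and dropped Col4a3 in cKO IP against Input. Of 1154 alternatives of single genes, 1059 kept direction and side of the threshold, 46 lost the call, 3 gained it and 46 turned sign. Signs turned for Col4a1 in IP (-0.11 by library size, -0.010 with the block, -0.0037 with all libraries), Col6a1 in Input (-0.0021 by library size, -0.033 with the block) and the age interaction of Col4a1 (0.0020 by library size). Leaving out 1 library, Col1a1 ranged from -0.24 to 0.055 at P17, -0.52 to 0.14 at P24 and -0.42 to 0.24 in the age interaction, Col1a2 from -0.22 to 0.070 at P17, -0.19 to 0.21 in IP, -0.13 to 0.23 in Input, -0.39 to 0.0052 for age and -0.27 to 0.12 for fraction, and Col3a1 from -0.18 to 0.095 at P17. Col4a1 ranged from -0.17 to 0.22 in IP, -0.21 to 0.30 in Input, -0.089 to 0.067 for age and -0.31 to 0.20 for fraction, Col4a2 from -0.36 to 0.079 in Input, and Col6a1 from -0.16 to 0.011 at P17 and -0.28 to 0.22 in Input. None of these was called.

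Over all genes, calls went from 388 to 598 (DESeq2) and 619 (no filter) at P24, from 20 to 41, 55 and 109 (block) at P17, from 26 to 127, 112, 15 (at least 10 counts), 8 (block) and 127 (all libraries) in Input, from 4782 to 1684 (all libraries) in IP, from 11 to 54, 62 and 55 (block) for age and from 15 to 284, 189 and 6 (block) for fraction.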

Other observations

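The bulk libraries differed widely in markers of the choroid plexus, the tissue that secretes cerebrospinal fluid. The summed level of 3 of its markers (Ttr, Folr1 and Kl) was 7.65, 393, 148 and 148 CPM in P24 Ctrl and 4.45, 66.6, 272 and 303 CPM in P24 cKO. Col9a3 was at 7.87, 16.9, 11.6 and 13.4 CPM in the same P24 Ctrl mice, so that the mouse lowest in the markers was lowest in Col9a3 and the highest was highest. The same held for Col4a4, at 0.662, 1.55, 0.900 and 0.875 CPM, and for Col8a2, a short chain collagen, at 1.10, 2.58, 1.65 and 1.82 CPM. In P24 cKO the order was another, with Col9a3 at 11.1, 10.4, 14.5 and 13.3 CPM. At P17, cKO replicate 1 had the highest marker sum (550 CPM) of all bulk libraries and the highest Col9a3 (29.9 CPM), Col4a4 (3.09 CPM) and Col8a2 (4.52 CPM). The P17 Ctrl mice spread widely in the marker sum, at 235, 251, 492 and 107 CPM, but little in Col9a3, at 21.04 to 23.5 CPM. Col4a4 was at 1.23 to 1.93 CPM and Col8a2 at 1.71 to 2.55 CPM in these Ctrl mice. These genes and libraries were chosen after their values were seen, and the part of choroid plexus in the collagen levels was not tested. In Ctrl IP, where Col4a4 was at 1.55 to 3.12 CPM, the same markers summed to 1.02 to 1.32 CPM.

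Of the P24 cKO mice, replicate 1 was lowest in the choroid plexus markers, in Col1a1 (11.9 CPM), Col3a1 (5.53 CPM) and Col6a1 (44.8 CPM), and in the 3 collagen genes called as higher.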
